A study of Homo sapiens with 12 samples.

Results

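Small nucleolar RNAs (snoRNAs) and small Cajal body RNAs (scaRNAs) were examined in total RNA of ES-2, an established ovarian cancer cell line. Cells had received control siRNAs (siC) or a pool of siRNAs to IGF2BP1 (called siI1), to IGF2BP2 (called siI2) or to IGF2BP3 (called siI3), with 3 libraries in each of the 4 groups. The cells are described as parental ES-2 cells, and the sources used here give no time after transfection. Members were selected on their name (SNORA, SNORD or SCARNA with a number) and on a mean level of at least 1 FPM over all 12 libraries. FPM is the depth-scaled fragment unit of the deposited table. The rule found 31 members, 9 box C/D snoRNAs, 15 box H/ACA snoRNAs and 7 scaRNAs, among 292 rows with such names and 57865 rows in all.

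Most snoRNAs are cut out of introns of host genes and act as guides in a ribonucleoprotein. Box C/D RNAs carry a C box near the 5′ end and a D box near the 3′ end, bind fibrillarin, NOP56, NOP58 and SNU13, and direct ribose methylation. Box H/ACA RNAs end in an ACA box, bind dyskerin, NHP2, NOP10 and GAR1, and direct pseudouridylation. Most guides act on ribosomal RNA, the U3 (SNORD3) and U17 (SNORA73) RNAs serve in pre-rRNA cleavage, and scaRNAs act on spliceosomal snRNAs in Cajal bodies. IGF2BP1, IGF2BP2 and IGF2BP3 are mRNA-binding proteins that influence mRNA stability, transport and translation.

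The sequences of some members on which the comparisons turned are printed here because the close relatives among them behaved differently across libraries. They come from GENCODE release 29 (GRCh38), matched by gene identifier, since the deposited table (hg19) gives no coordinates. In box C/D RNAs and composite scaRNAs the capitals mark TGATGA within the first 25 bases and CTGA within the last 25, and in the box H/ACA RNA they mark ACA within the last 10 bases. The first set holds SNORD12 (chr20:49280683-49280772), SNORD12B (chr20:49280319-49280409) and SNORD12C (chr20:49278940-49279028), all on the plus strand within ZFAS1, where SNORD12 overlaps an exon and the other two are intronic.
SNORD12: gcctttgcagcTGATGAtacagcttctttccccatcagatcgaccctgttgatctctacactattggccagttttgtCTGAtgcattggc
SNORD12B: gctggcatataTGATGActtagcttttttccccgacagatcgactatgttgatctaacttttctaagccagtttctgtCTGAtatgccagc
SNORD12C: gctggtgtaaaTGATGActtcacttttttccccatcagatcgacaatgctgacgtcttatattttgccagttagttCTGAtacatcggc

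The next set is the pair SCARNA5 (chr2:233275727-233276002) and SCARNA6 (chr2:233288676-233288940), on the plus strand in introns of ATG16L1. Both begin and end with nearly the same bases and carry both boxes, and over a global alignment of 281 columns they were 63.0% identical.
SCARNA5: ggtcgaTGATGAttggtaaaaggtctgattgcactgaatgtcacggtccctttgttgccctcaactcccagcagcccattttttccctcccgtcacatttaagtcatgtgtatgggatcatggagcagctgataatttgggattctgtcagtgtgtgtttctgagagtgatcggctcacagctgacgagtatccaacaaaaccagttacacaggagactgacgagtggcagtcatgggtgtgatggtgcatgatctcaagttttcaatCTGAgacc
SCARNA6: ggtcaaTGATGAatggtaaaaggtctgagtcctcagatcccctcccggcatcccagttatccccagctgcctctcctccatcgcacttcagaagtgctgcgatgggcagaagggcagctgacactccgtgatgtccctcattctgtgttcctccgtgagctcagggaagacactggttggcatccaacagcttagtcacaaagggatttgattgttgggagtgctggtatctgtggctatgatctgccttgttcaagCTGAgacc

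The remaining RNAs shown are SNORD17 (chr20:17962710-17962946, minus strand, introns of SNX5 and OVOL2) and the box H/ACA scaRNA SCARNA13 (chr14:95533355-95533629, minus strand, intron of SNHG10), which were among the RNAs called in siI3.
SNORD17: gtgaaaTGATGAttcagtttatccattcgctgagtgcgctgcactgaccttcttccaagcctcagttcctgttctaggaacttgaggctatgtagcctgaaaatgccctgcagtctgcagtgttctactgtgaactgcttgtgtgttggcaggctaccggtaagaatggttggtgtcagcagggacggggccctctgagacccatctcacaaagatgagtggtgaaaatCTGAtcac
SCARNA13: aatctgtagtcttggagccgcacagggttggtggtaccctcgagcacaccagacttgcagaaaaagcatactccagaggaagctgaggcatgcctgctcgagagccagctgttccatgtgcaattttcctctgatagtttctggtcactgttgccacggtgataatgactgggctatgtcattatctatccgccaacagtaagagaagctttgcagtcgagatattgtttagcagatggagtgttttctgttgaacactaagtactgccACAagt

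The libraries held 3299360 to 11304060 reads, recovered from the table, and 3 reads corresponded to 0.324 to 0.727 FPM. IGF2BP1 was at 40.7 to 49.1 FPM in siC and 10.7 to 11.7 FPM in siI1, IGF2BP2 at 74.8 to 83.9 FPM in siC and 9.37 to 19.2 FPM in siI2, and IGF2BP3 at 19.5 to 29.4 FPM in siC and 2.54 to 5.89 FPM in siI3. Of the markers listed for an ovarian line, KRT8, KRT18 and VIM were present and PAX8, WT1, EPCAM and CDH1 stayed under 3 FPM in every library. The leukocyte marker CD3E and the erythroid HBB stayed under 1 FPM, while the endothelial CDH5 was at 54.8 to 71.8 FPM in siC and 93.7 to 149 FPM in the knockdown libraries, and its part in the results was not tested. Whether replicate libraries stem from different cultures is not stated in the labels, and the p-values therefore reflect the spread among these samples, which may be technical. No pair of libraries in a group was as close as sampling noise, the ratio of chi-square to its degrees of freedom being 7.46 to 72.4.

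Libraries of the same group differed in composition. The slope of gene level on GC content, in log2 units per 10 points of GC, was -0.46 and -0.43 in siC replicates 1 and 3 and 0.03 in siC replicate 2. It was 0.01 in siI1 replicate 2, -0.09 in siI2 replicate 2 and -0.03 in siI3 replicate 3, and 0.12 to 0.21 in the other 6 knockdown libraries. U1 snRNA took 6.31% to 14.7% of reads in siC, 9.37%, 6.81% and 8.13% in those 3 knockdown libraries, and 0.807% to 5.22% in the other 6. Spike-in RNAs took 1.71% to 2.68% of reads in siC and 0.742% to 1.59% in the knockdown libraries. These shares moved with several results below, and their part in them was not tested.

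Most of the signal came from a few RNAs. As the members were chosen on their mean level, levels are given as a description. Per kb of annotated gene length, the 5 box C/D members with the highest mean levels were SNORD3A at 2747 FPM per kb, SNORD3D at 2129, SNORD17 at 358, SNORD3C at 290.2 and SNORD104 at 83.6. Among box H/ACA members, SNORA73B stood at 3645 FPM per kb, SNORA74B at 186, SNORA71C at 76.2, SNORA71A at 58.4 and SNORA47 at 58.3. Among scaRNAs, SCARNA2 was at 769.7 FPM per kb, SCARNA7 at 129, SCARNA10 at 62.6, SCARNA6 at 51.4 and SCARNA5 at 31.6. The annotated SNORD3A gene is 699 bases long whereas its snoRNA transcript has 217, so levels per kb of the U3 copies are understated by the annotation. By identifier, the rows named SNORD3D and SCARNA2 are the lincRNA genes AC007952.4 and AL356488.2 in GENCODE, and SNORA45 is SNORA3B.

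The 3 U3 rows could not be read as separate genes. SNORD3A and SNORD3C differed at 1 of 217 bases and SNORD3A and SNORD3D at 3 of 217, and how reads that fit several copies were counted was not found in the labels or file header. SNORD3A was at 5593, 1298 and 1338 FPM in siC, 662, 1524 and 865 in siI1, 3622, 3196 and 547 in siI2, and 827, 2741 and 827 in siI3. SNORD3D was at 5046, 1039 and 1151 FPM in siC, 265, 1318 and 328 in siI1, 3025, 2708 and 258 in siI2, and 235, 242 and 659.9 in siI3. Both rows varied several-fold within siC and within siI2, and for SNORD3A each knockdown group overlapped siC. The ratio of SNORD3A to SNORD3D was 1.11 to 2.64 in 10 libraries, and 3.51 and 11.3 in siI3 replicates 1 and 2.

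Summed over the class, box C/D members (mean ± SD, n = 3) stood at 5532 ± 4883 FPM in siC, 1868 ± 1077 FPM in siI1, 4802 ± 3399 FPM in siI2 and 1984 ± 1006 FPM in siI3. As the U3 rows may share reads, these sums may count some reads more than once. Without the U3 rows the sums were 135 ± 49.5 FPM in siC, 104 ± 10.8 in siI1, 128 ± 75.9 in siI2 and 39.2 ± 32.8 in siI3. In that sum the siI3 libraries, at 26.2, 14.9 and 76.6 FPM, lay below the siC libraries, at 169, 159 and 78.6, but in siC most of it was SNORD17, whose own groups overlapped. Box H/ACA members summed to 967 ± 431 FPM in siC, 880 ± 162 in siI1, 1067 ± 274 in siI2 and 456 ± 148 in siI3. Most of this was SNORA73B, at 513, 1351 and 676 FPM in siC and 398, 229 and 549 in siI3, where the groups overlapped. The scaRNA sum, of which SCARNA2 was the main part, was 391 ± 45.9 FPM for siC, 409 ± 83.6 for siI1, 419 ± 119 for siI2 and 458 ± 199 for siI3. Without SCARNA2 it was 143 ± 37.5 FPM for siC, 73.4 ± 11.1 for siI1, 79.5 ± 48.5 for siI2 and 67.2 ± 18.6 for siI3, so the mean was below siC in all 3 knockdowns.

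**Figure D1:**
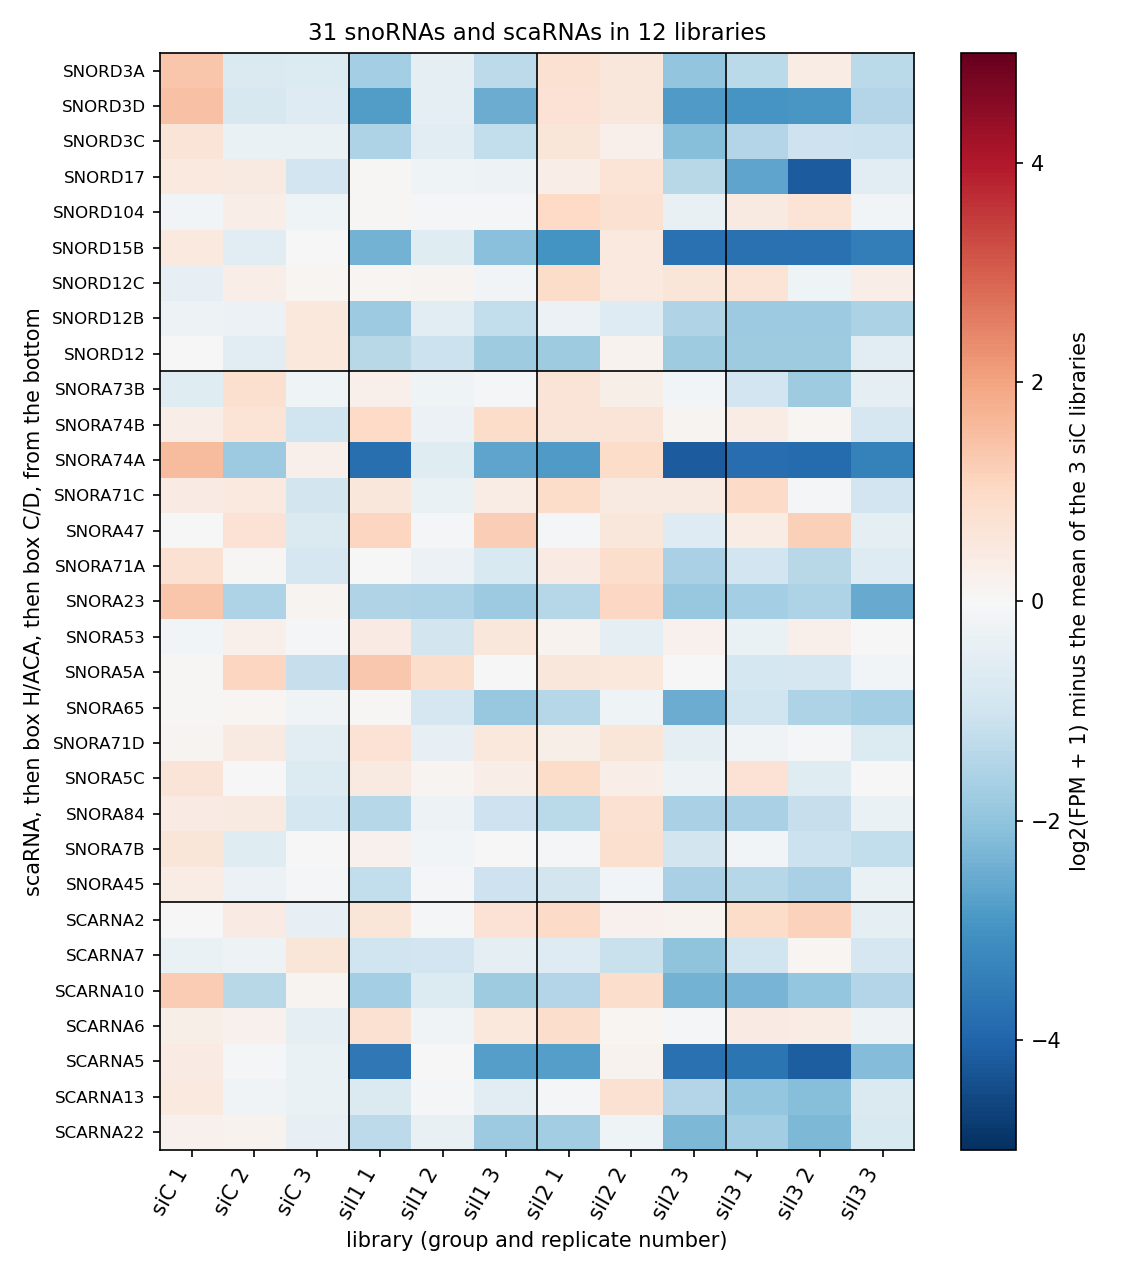
Level of each of the 31 members (rows, by class and mean level) in each of the 12 libraries (columns, by group and replicate number), as the difference in log2(FPM + 1) from the mean of the 3 siC libraries. SNORA74A, SCARNA5 and SNORD15B are low in all 3 siI3 libraries and within 1 log2 unit of the control mean in siI1 replicate 2 and siI2 replicate 2, while SCARNA6 and SNORD12C stay within 1 log2 unit in every library.

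The comparison of siI3 with siC asked which members changed after IGF2BP3 knockdown. SNORD15B and SNORD17 among box C/D snoRNAs, SNORA74A among box H/ACA snoRNAs, and SCARNA5 and SCARNA13 among scaRNAs fell, and no member rose. SNORD12B was also called lower, but it reached the selection level only through siC. The test was limma, its variance prior following the mean, on log2(FPM + 1) values over 13782 genes and all 12 libraries, with Benjamini-Hochberg adjustment over all genes and calls below an adjusted p of 0.05. All 31 members were among the genes tested. Over all genes 10.6% were called in either direction and 8.29% were called lower, against 6 of 31 members. SNORD12B, SNORD12, SNORA84 and SNORA45 have a mean under 1 FPM when siC is left out, so these 4 were members only through their control libraries, and their being higher there was favoured by the selection. Without them 5 of 27 members were called lower. Fold changes on the log2(FPM + 1) scale understate the change of low genes. In bulk RNA, fewer cells of a type and less RNA per cell cannot be told apart.

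SNORD15B, a methylation guide for 28S rRNA, was at 17.6, 7.98 and 12.5 FPM in siC and at 0, 0 and 0.177 FPM in siI3. The groups did not overlap, and the whole siI3 group held 1 read against 318 in siC. Its log2 fold change was -3.63 (SE 0.75, limma adjusted p = 0.0133), and the pooled reads gave a 259.6-fold difference with an exact 95% interval of 46.3 to 10286 that covers counting error only. In siI1 it was at 1.55, 7.52 and 2.05 FPM and in siI2 at 0.639, 17.3 and 0 FPM, so that siI2 replicate 2 was within the siC range. Its host RPS3, a ribosomal protein gene, was at 858, 1023 and 894 FPM in siC and 1384, 1479 and 823 in siI3.

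SNORD12B was at 1.97, 1.94 and 4.2 FPM in siC and at 0, 0 and 0.177 FPM in siI3, again without overlap. It held 66 reads in siC and 1 in siI3, and as it was a member only through siC this is given as a description. No member depended on any other group in this way. SNORD17, a long guide for 28S rRNA, was at 141, 138 and 51.4 FPM in siC and 15.2, 4.70 and 67.3 FPM in siI3. Here the groups overlapped, since siI3 replicate 3 was above siC replicate 3, and the log2 fold change was -2.45 (SE 0.67, limma adjusted p = 0.0318).

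SNORA74A, a U19 copy, was at 52.1, 4.1 and 20.0 FPM in siC and at 0.281, 0.254 and 0.709 FPM in siI3. All 3 siI3 libraries were low and the siC libraries were spread, with replicate 2 far below the other two, but the groups did not overlap. The log2 fold change was -3.67 (SE 1.04, limma adjusted p = 0.0365). In siI1 SNORA74A was at 0.311, 10.7 and 1.88 FPM and in siI2 at 1.49, 32.7 and 0 FPM. Replicate 2 of each was within the siC range, and the others were below it. SCARNA5, a composite guide also known as U87, was at 25, 17.1 and 14.6 FPM in siC and at 0.561, 0.127 and 3.37 FPM in siI3. Its groups did not overlap, and its log2 fold change was -3.30 (SE 0.88, limma adjusted p = 0.0294). SCARNA13, also known as U93, was at 6.61, 3.88 and 3.38 FPM in siC and 0.421, 0.254 and 2.30 FPM in siI3, also without overlap, with a log2 fold change of -1.60 (SE 0.49, limma adjusted p = 0.0477).

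**Figure D2:**
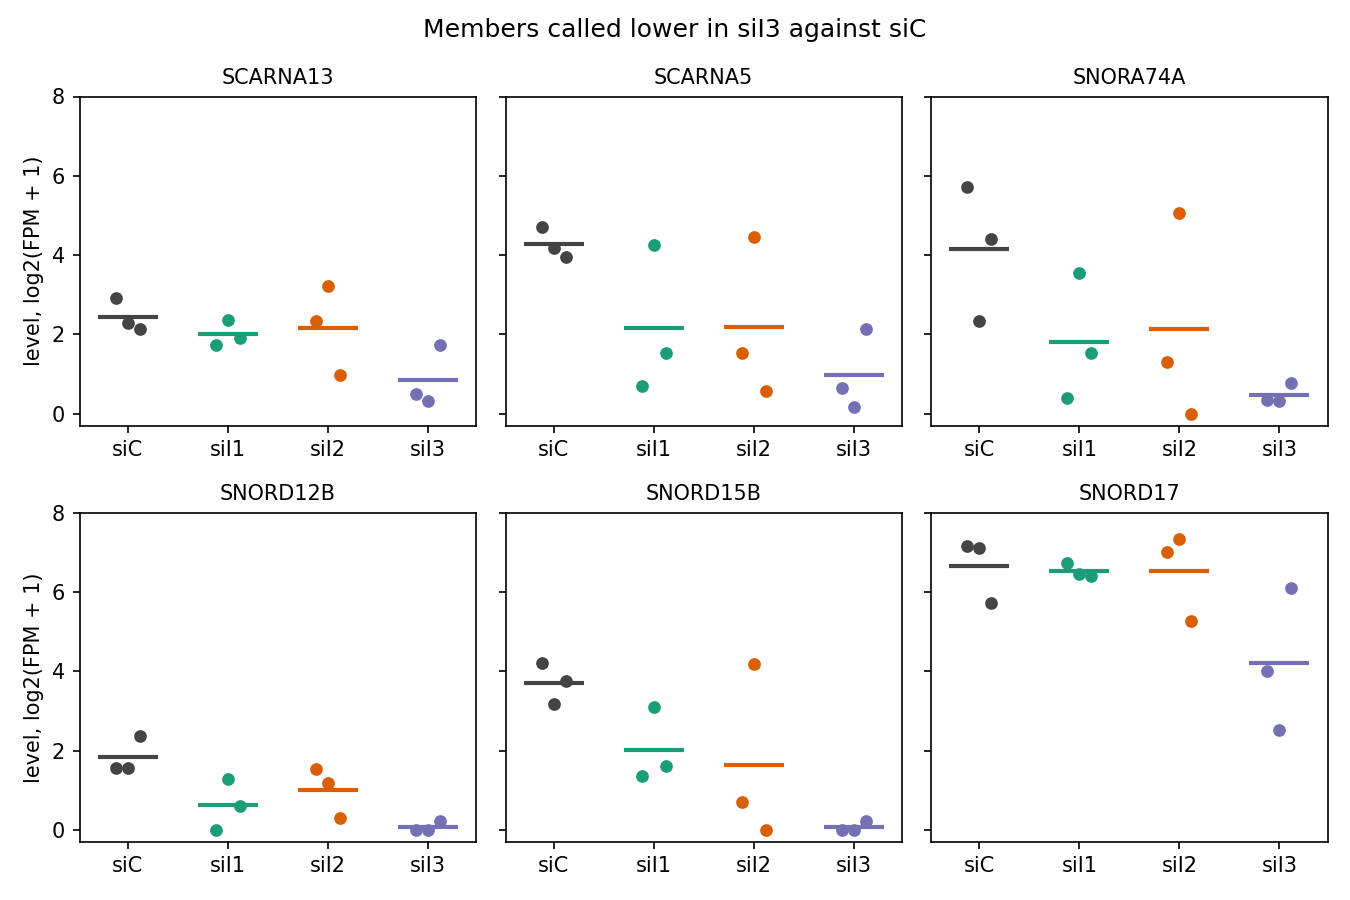
Level, log2(FPM + 1), of the 6 members called lower in siI3 in each library, by group, with points for libraries and bars for the mean of 3. Of these, SNORD12B reached the selection level only through siC. The siI3 libraries of SNORD15B lie at or near 0, SNORD17 shows siI3 replicate 3 above the lowest siC library, and in SCARNA5 1 library of siI1 and 1 of siI2 lie at the siC level.

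The median log2 fold change of the 31 members in siI3 was -1.05, against -0.05 over all genes tested. By class it was -1.37 for box C/D, -0.81 for box H/ACA and -1.59 for scaRNAs. Of the 31 members, 25 had a negative value. Without the 4 that depended on siC the median over members was -0.81, and 21 of 27 had a negative value. The box C/D median was the value of SNORD12, 1 of these 4, and the box H/ACA median includes SNORA84 and SNORA45. Class medians were not computed without them. The 25 members not called ranged from -2.44 for SNORD3D to 0.54 for SCARNA2, among them SNORA7B at -0.81, SNORD104 at 0.33 and SNORA47 at 0.35. Groups did not overlap, with siI3 lower, for 12 members (10 of 27 without the 4 that depended on siC) against 20.0% of all genes, and with siI3 higher for 0 members against 9.25%. Those 12 were 4 of each class, and SCARNA10, SCARNA22, SNORA23, SNORA45, SNORA65, SNORD3C and SNORD3D were among them without passing the test. SNORA23, an H/ACA guide in an intron of IPO7, was at 30.5, 3.13 and 12 FPM in siC and 2.67, 3.05 and 1.06 FPM in siI3 (limma adjusted p = 0.076). SCARNA10, a composite guide also known as U85, was at 74.4, 10.9 and 32.9 FPM in siC and 5.19, 7.11 and 10.3 FPM in siI3 (limma adjusted p = 0.0769).

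Counts of reads gave a similar number of calls but not the same members. edgeR's quasi-likelihood test on the recovered reads called 7 members lower, against 8.75% of all genes (6 of 27 without SNORD12B and the other 3). These were SCARNA5, SCARNA10, SNORA23, SNORA74A, SNORD12B, SNORD15B and SNORD3D. DESeq2 called 5 members lower, SCARNA13, SNORA23, SNORA73B, SNORA74A and SNORD15B, against 10.4% of all genes. It gave no adjusted p for SNORD12, SNORD12B, SNORA45, SNORA7B and SNORA84. The 10.4% counts genes without an adjusted p as not called. In the authors' deposited table, SNORD12B (log2 fold change -5.36, FDR 0.00852) and SNORD15B (-7.54, FDR 0.0186) were the members below an FDR of 0.05. Of all 57773 rows there, 266 were below it in either direction, and SNORD12B was a member only through siC. Leaving out 1 library changed the calls more than the fold changes. Without siC replicate 1, siC replicate 3, siI3 replicate 1 or siI3 replicate 2, limma called 0 members, and 89 to 215 genes in place of 1460, while the median over members was -0.83, -1.18, -1.0 and -0.91 in turn. Without siC replicate 2 it called 8, all lower, with 14.4% of all genes called lower, and without siI3 replicate 3, whose GC slope and U1 share lay nearer to siC, it called 12, of which SCARNA2 was higher, with 11.9% of all genes called lower and 7.99% higher. After a loess correction of each library for GC content and length SNORD15B alone was called, against 4.1% of all genes called lower. The median over members was then -0.73, against 0.02 over all genes.

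Scaling by the spike-in RNAs moved all genes together. The median over all genes in siI3 became 0.96 and that over members 0.00 (-0.92 for box C/D, 0.05 for box H/ACA and -0.81 for scaRNAs). This scaling multiplies all genes of a library by the same factor. The gap of about 1 log2 unit between members and the median gene could therefore change only through the 1 added to FPM. That the gap stayed is thus no test of the members' fall. SCARNA5, SNORA74A, SNORD12B, SNORD15B and SNORD17 were called lower under that scaling, and SCARNA2, SCARNA6, SNORA47, SNORD104 and SNORD12C were called higher. The latter 5 had positive log2 fold changes of 0.18 to 0.54 before that scaling, without passing the test. Under spike-in scaling 49% of all genes were called higher and 0.747% lower.

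In siI1 against siC no member passed the test, against 8.18% of all genes by limma. The count tests edgeR and DESeq2 also called 0 members, against 9.3% and 14.7% of all genes. At an unadjusted p under 0.05, limma found 10 members lower and 0 higher, against 16.3% and 11.2% of all genes. Without the 4 members that reached 1 FPM only through siC, 8 of 27 were lower. SNORD12B, 1 of those 4, was at 0, 1.44 and 0.513 FPM in siI1. SNORD12, another of them, was at 2.43, 1.4 and 4.06 FPM in siC and 0.311, 0.640 and 0 FPM in siI1, so the choice of members favoured both of these differences. Groups did not overlap, with siI1 lower, for 5 members, which were SNORD12, SNORD12B, SNORD15B, SNORD3C and SCARNA7 (3 of 27 without the first pair), against 17.6% of all genes, and with siI1 higher for 0 members, against 15.2%. The median over members was -0.45, with -1.16 for box C/D and -0.82 for scaRNAs, against -0.05 over all genes. Without the 4 that depended on siC the median over members was -0.13. The box C/D and box H/ACA medians include members of these 4. The box H/ACA median of 0.02 was -0.04 in depth-only scaling without a scaling factor and 0.47 with spike-in scaling, under which the median over all members was 0.00 and that over all genes 0.43. Without siI1 replicate 2, SCARNA5 and SNORD12B were called lower, and without siC replicate 2, SCARNA10, SNORA23 and SNORA74A were, against 3.87% and 11.3% of all genes called lower.

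In siI2 against siC no member passed the limma test either, against 1.51% of all genes. At an unadjusted p under 0.05, 6 members were lower and 1 was higher, against 16.4% and 6.41% of all genes. Leaving out the 4 members that depended on siC, 5 of 27 were lower. Of the count tests, edgeR called 0 members, against 1.1% of all genes. DESeq2 called SCARNA7 lower, against 2.66% of all genes called lower by DESeq2. SCARNA7, a box C/D scaRNA also known as U90 in an intron of KPNA4, was at 48.7, 51.7 and 94.1 FPM in siC and at 39.4, 28.1 and 14.8 FPM in siI2. Its groups did not overlap, with a log2 fold change of -1.25 (SE 0.35, limma adjusted p = 0.0742). SNORA65 and SNORD12B also lay below all siC libraries, making 3 members (2 of 27 without SNORD12B and the other 3 that depended on siC) against 12.3% of all genes. SNORD12C was the 1 member above, at 5.32, 3.67 and 4.12 FPM against 1.51, 3.24 and 2.57 FPM, against 7.72% of all genes (limma adjusted p = 0.214). The median over members was -0.21, and -0.09 over all genes. Without the 4 that depended on siC the median over members was -0.11, close to that over all genes. The box H/ACA median of -0.05 turned to 0.02 with RLE scaling and 0.03 with upper-quartile scaling. It was 0.09 with structured RNAs left out of the total and 0.80 with spike-in scaling. With spike-in scaling the medians were 0.60 over members and 0.80 over all genes, and 7 of 31 members were called higher, against 31.4% of all genes. Without siI2 replicate 2, 8 members were called lower, SCARNA5, SCARNA7, SCARNA10, SCARNA22, SNORA65, SNORA74A, SNORD12 and SNORD15B, against 8.55% of all genes, and without siC replicate 2 SCARNA7 was, against 8.84%.

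**Figure D3:**
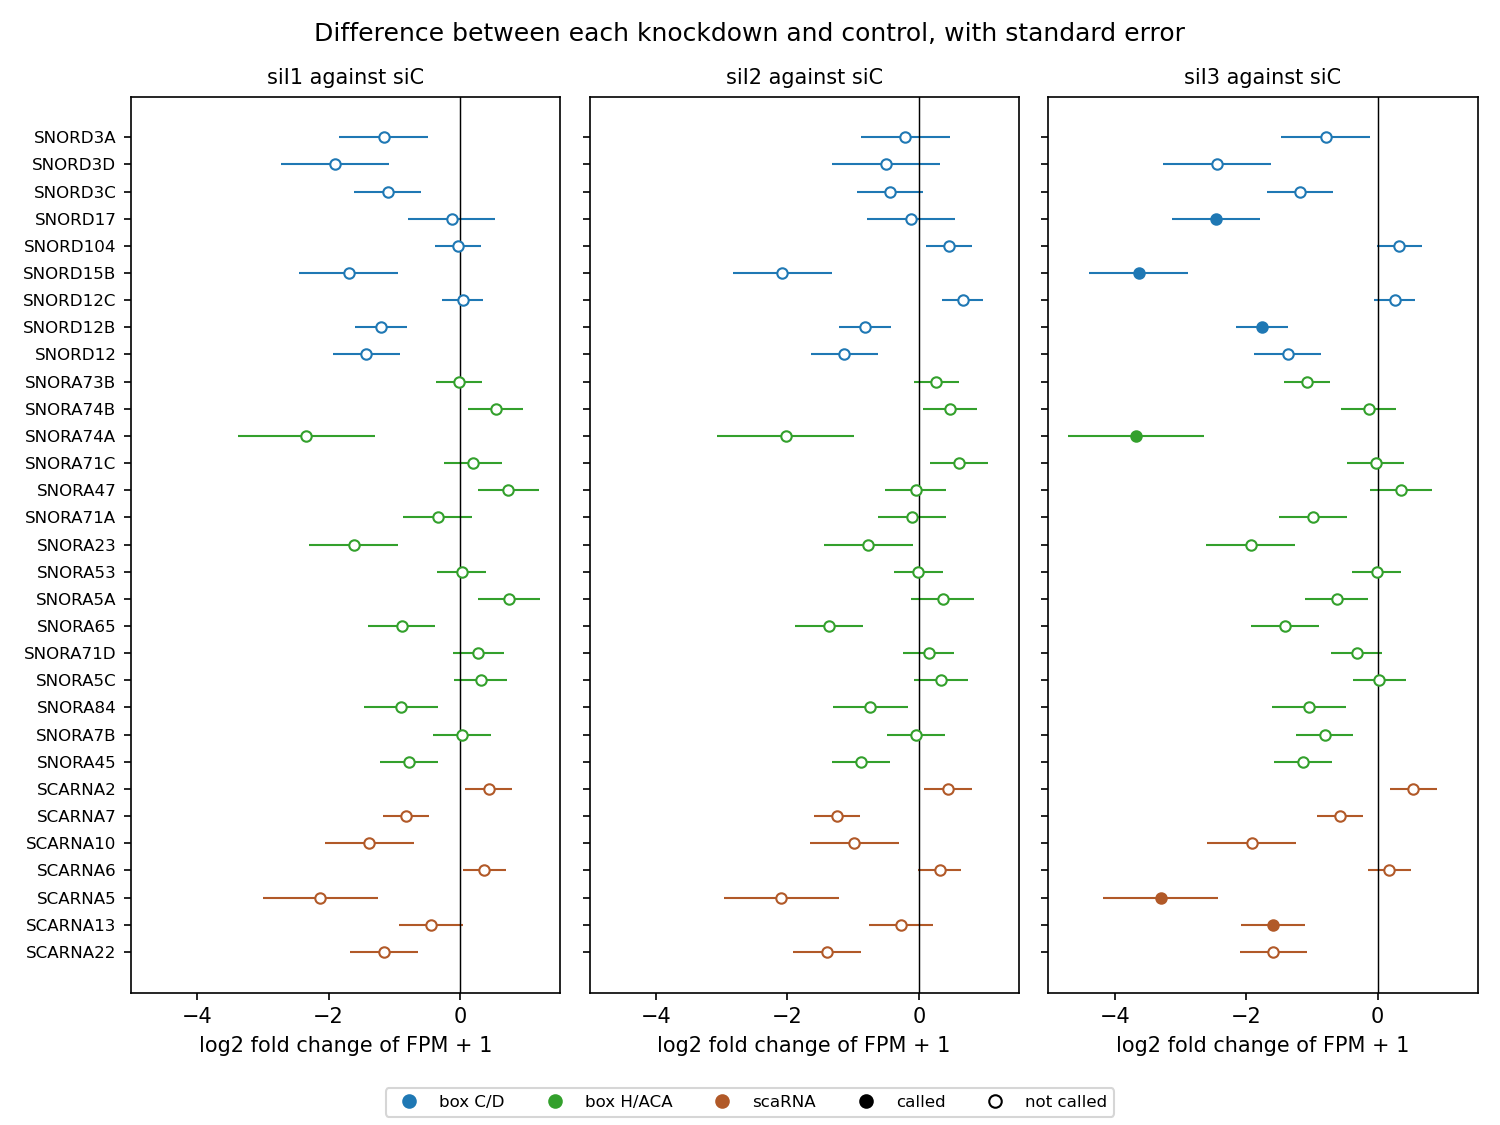
Log2 fold change of FPM + 1 (x axis) of each of the 31 members (y axis) in siI1, siI2 and siI3 against siC, with the standard error as a bar and filled points for members below an adjusted p of 0.05. Filled points occur for siI3 only, 6 of them, all to the left of 0, and the 3 panels share the same siC libraries.

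Knockdowns were also compared with each other, in the fit over all 12 libraries, where the siC libraries enter the estimate of the spread. SNORD17 was the only member called by limma in any of the 3, and was higher in siI1 than in siI3, at 105, 86.2 and 84.3 FPM against 15.2, 4.70 and 67.3 FPM. The groups did not overlap, with a log2 fold change of 2.32 (SE 0.67, limma adjusted p = 0.0452), in a comparison where 7.05% of all genes were called. This call was lost in a limma fit of only the 6 libraries compared (adjusted p = 0.0582), which called SNORD15B instead, with edgeR (adjusted p = 0.157) and DESeq2 (adjusted p = 0.294), and without siI1 replicate 1, 2 or 3 or siI3 replicate 1 or 2 (adjusted p = 0.11 to 0.221). In siI2 against siI3, limma called 0 members, against 2.00% of all genes. At an unadjusted p under 0.05, 5 members were higher in siI2 and 0 lower, against 6.98% and 7.52% of all genes. In the count tests edgeR called 0 members, against 1.72% of all genes. DESeq2 called SNORA73B and SNORD15B higher in siI2, against 2.71% of all genes called higher by DESeq2. SNORA73B, an RNA of 18S processing, was at 1211, 949 and 712 FPM in siI2 and 398, 229 and 549 FPM in siI3 (log2 fold change 1.34, SE 0.35, limma adjusted p = 0.061). Without siI2 replicate 3, 6 members were called higher in siI2, against 1.81% of all genes, and without siI3 replicate 3, SNORA73B and SNORD17 were, against 1.61%. In siI1 against siI2, limma, edgeR and DESeq2 called 0 members, against 2.40%, 1.92% and 4.02% of all genes in turn. At an unadjusted p under 0.05 limma found 0 members, against 9.06% of all genes higher in siI1 and 5.24% lower. Without siI2 replicate 3 SNORD3C was called lower in siI1, against 0.653% of all genes.

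Several members at 1 locus or of 1 family did not move together. SCARNA5 was at 0.621, 18.1 and 1.88 FPM in siI1 and 1.92, 20.9 and 0.485 FPM in siI2, so replicate 2 of each lay in the siC range and the other 4 libraries were at or under 1.92 FPM. SCARNA6, from another intron of ATG16L1, was at 13.7, 12.9 and 7.72 FPM in siC, 19.6, 9.59 and 16.6 in siI1, 21.5, 12.1 and 10.7 in siI2, and 15.3, 14.7 and 9.04 in siI3. Its groups overlapped in all 3 comparisons with siC, and its log2 fold change in siI3 was 0.18 (SE 0.32, limma adjusted p = 0.739). The ratio of SCARNA5 to SCARNA6 was 1.33 to 1.89 in the siC libraries, 1.88 in siI1 replicate 2 and 1.73 in siI2 replicate 2, 0.373 in siI3 replicate 3, and 0.00862 to 0.113 in the other 6. The host ATG16L1, an autophagy gene, was at 27.6, 31.1 and 22.1 FPM in siC and 22.9, 17.1 and 19.8 FPM in siI3 (limma adjusted p = 0.257).

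The SNORD12 family also did not move together, but SNORD12 and SNORD12B were members only through siC. Their higher level there was favoured by the selection, so the difference from SNORD12C is given as a description. SNORD12C was at 2.64, 2.72 and 2.05 FPM in siI1 and 4.35, 1.91 and 3.19 FPM in siI3, with a log2 fold change in siI3 of 0.26 (SE 0.31, limma adjusted p = 0.592). SNORD12 was at 0, 0 and 1.42 FPM in siI3 and overlapped siC. The host ZFAS1, a noncoding RNA gene, fell in siI3, from 48.1, 30.0 and 40.2 FPM to 10.2, 7.62 and 17.4 FPM (log2 fold change -1.71, SE 0.34, limma adjusted p = 0.011). With 1 to 66 reads per group, counting error alone is wide for these RNAs. SNORA74B, another U19 copy, 67.3% identical to SNORA74A over 208 aligned columns, was at 37.6, 47.5 and 14.1 FPM in siC and 37.9, 31.3 and 15.9 FPM in siI3 (limma adjusted p = 0.85), while its host ATP6V0E1, a subunit gene of the vacuolar proton pump, fell (log2 fold change -1.0, SE 0.21, limma adjusted p = 0.0133).

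**Figure D4:**
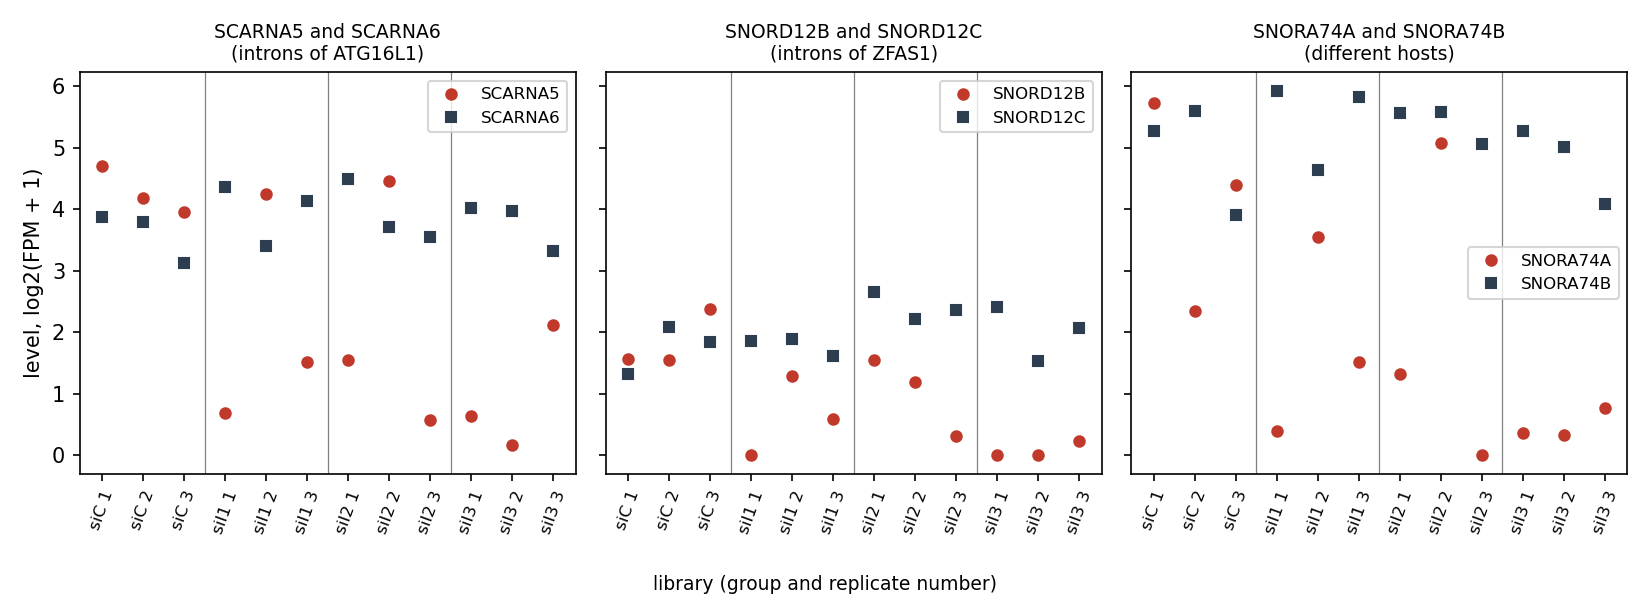
Level, log2(FPM + 1), of SCARNA5 and SCARNA6, SNORD12B and SNORD12C, and SNORA74A and SNORA74B in each of the 12 libraries, in order of group and replicate number. SNORD12B reached the selection level only through siC. SCARNA5 and SNORA74A range from near 0 to above 4 while SCARNA6 stays between 3 and 5, and SCARNA5 and SNORA74A stand high in the siI1 and siI2 libraries numbered 2.

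Members from other shared hosts differed less from one another. SNORA71A, SNORA71C and SNORA71D, 3 H/ACA guides, lie in introns of SNHG17, are 83.1% to 86.6% identical, and had log2 fold changes in siI3 of -0.98, -0.03 and -0.32, none called. SNHG17 rose in siI3, at 61.2, 68.9 and 58.5 FPM against 32.1, 44.0 and 36.1 FPM (log2 fold change 0.74, SE 0.18, limma adjusted p = 0.0243). SNORA5A and SNORA5C lie in introns of TBRG4 and stood at -0.62 and 0.03, also not called. Of the 15 tested genes that host members and were not on the host list, 4 were called in siI3, all lower, against 8.29% of all genes. They were KPNA4, ATP6V0E1, IARS and RPL27A. In siI1 1 was called, KPNA4, also lower, against 4.42% of all genes.

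Other host genes and the protein partners were given as lists. Of 23 tested host genes, 6 were lower and 2 higher in siI3, where 8.29% of all genes were called lower and 2.3% higher, the lower ones being GAS5, SNHG1, SNHG3, ZFAS1, EIF4A2 and HSPA8 and the higher ones SNHG8 and SNHG17. EIF4A2, a translation factor gene, was at 106, 35.3 and 84.3 FPM in siC and 9.68, 12.2 and 16.7 FPM in siI3 (limma adjusted p = 0.0133). In siI1, EIF4A2 and NCL were called lower, against 4.42% of all genes. In siI2 none of the 23 was called, against 1.51% of all genes. Of 4 box C/D proteins none was called in any knockdown, with fibrillarin (FBL) at 67.6 to 79.3 FPM in siC and 75.5 to 102 FPM in siI3. Of 3 tested box H/ACA proteins DKC1, the pseudouridine synthase dyskerin, was called lower in siI3, at 64.1, 46.8 and 51.0 FPM in siC and 26.5, 21.0 and 29.4 FPM in siI3 (log2 fold change -1.05, SE 0.27, limma adjusted p = 0.0264). Of 11 assembly factors, ZNHIT6, which acts in box C/D particle assembly, was lower in siI3 and RPAP3 in siI1, and of 4 Cajal body proteins none was called. Among 19 tested structured RNAs, TERC was higher and VTRNA1.3 lower in siI3, and none was called in siI1 or siI2. Over all genes 8.18% were called in siI1, 1.51% in siI2 and 10.6% in siI3, in either direction.

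The 6 members called lower in siI3 had a GC content of 41.8% to 49.8%, with a median of 47.8%, and the other 25 a median of 53.7%. The 41.8% is that of SNORD12B, which was a member only through siC. Next lowest among the called members was SCARNA5 at 47.5%. Split at 50%, chosen after the values were seen and not tested, the 14 members below had a median log2 fold change of -1.68 in siI3, -1.18 in siI1 and -0.79 in siI2, and the 17 members at or above it had -0.62, 0.03 and 0.15. SNORD12C at 41.6%, SNORA53 at 39.4% and SCARNA7 at 37.3% GC had log2 fold changes in siI3 of 0.26, -0.01 and -0.58, none called. These are descriptions over genes that share the same libraries, and the slopes of level on GC given above differed between the same libraries. Both sides of the split held members that reached 1 FPM only through siC.

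**Figure D5:**
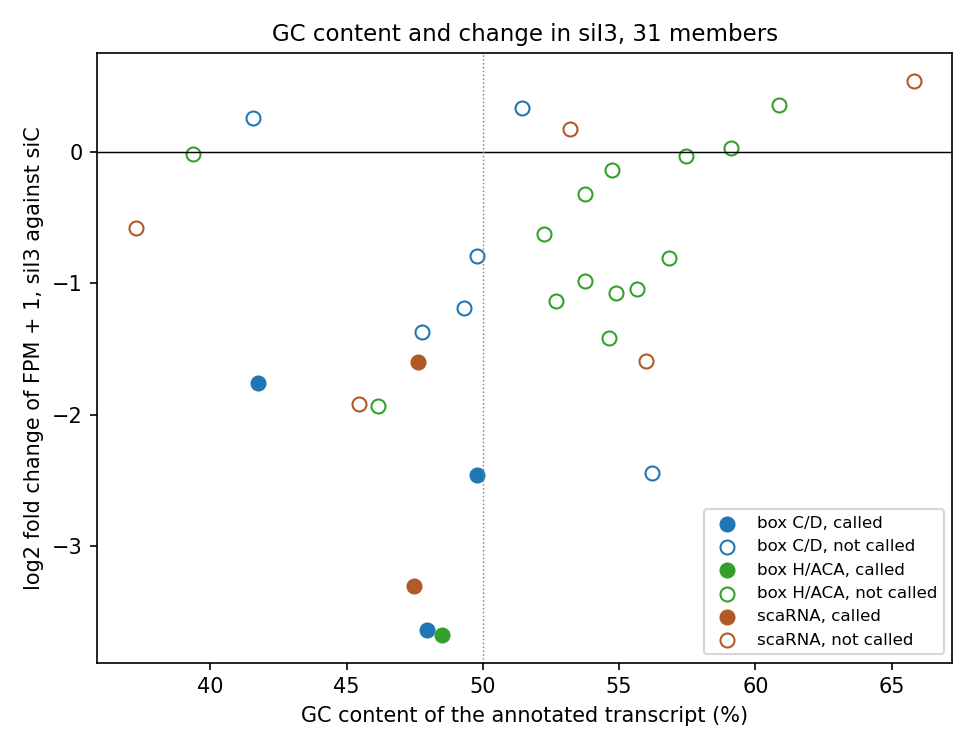
GC content of the annotated transcript (x axis, %) and log2 fold change of FPM + 1 in siI3 against siC (y axis) for the 31 members, coloured by class and filled where called. All 6 filled points lie left of 50% GC, and the 3 members of lowest GC content, SCARNA7, SNORA53 and SNORD12C, are open points above -0.6. The filled point of lowest GC content is SNORD12B, which reached the selection level only through siC.

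Members were longer than the rows that were left out. Box C/D members had a median annotated length of 146 bases, against 77 bases for 138 left-out box C/D rows with an annotation, and 100 of the 150 left-out rows had no read in any library. Box H/ACA members had 137 bases against 134, and scaRNA members 276 against 140. An exon of another gene overlapped 11.1% of box C/D members and 42.8% of left-out box C/D rows, and 6.67% and 22.3% of box H/ACA rows. The bases TGATGA, searched on the RNA strand, stood within the first 25 bases of 6 of 9 box C/D members and 78 of 138 left-out rows, and of 0 of 15 box H/ACA members. CTGA stood within the last 25 bases of 8 of 9 box C/D members and 118 of 138 left-out rows. ACA stood within the last 10 bases of all 15 box H/ACA members and of 75 of 94 left-out box H/ACA rows. At the threshold, SNORD12 and SNORA45 had means of 1.1 FPM each, and SNORA28 and SNORA31, at 0.965 and 0.816 FPM, were just outside.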

How the data were processed

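Total RNA depleted of rRNA was sequenced from 12 libraries. The authors deposited 1 table of 57865 rows with FPM, a depth-scaled signal per gene, and with log2 fold changes and FDR-adjusted p-values of their own comparisons, per the file headers. The submitters' processing notes name cutadapt 1.6, TopHat2 2.0.13, featureCounts 1.4.6, edgeR 3.12 and hg19. Their roles, the annotation release and the strand setting were not found in the labels or header, so reads of a gene and an overlapping or antisense gene cannot be told apart.

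FPM values were whole multiples of the value of 1 read (100% within a tolerance of 0.01), and the recovered reads gave depths of 3299360 to 11304060 per library. The 92 spike-in rows were left out of the tests. Genes with too few reads were filtered (edgeR's filterByExpr, minimum count 10), leaving 13782, and log2(FPM + 1) was tested with limma 3.58.1 (trend) in R 4.3.3, with 1 coefficient per group over all 12 libraries and Benjamini-Hochberg adjustment over all genes tested. edgeR 4.0.16 and DESeq2 1.42.0 on recovered reads, other scalings, filters and pseudocounts, a replicate block, a loess correction for GC content and length and leaving out each library were alternatives. Leaving out replicate 2 of every group and spike-in scaling were added after seeing the data. Intervals are exact and cover counting error only. Genes named were the members that passed the test or did not overlap between groups, the related or same-host members, the members with the highest levels per kb, and the called genes of the lists of hosts and partner proteins. Members and lists were chosen with earlier results of these data known. Some marker genes and sequences are not reported here.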

Additional observations from a re-analysis of the deposited data

Results flagged for a closer look

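SNORD17 stood out for a difference between the siI1 and siI3 knockdowns, at 105, 86.2 and 84.3 FPM in siI1 and 15.2, 4.70 and 67.3 FPM in siI3 (log2 difference 2.32, limma adjusted p = 0.0452, adjusted p = 0.00135 to 0.294 over the alternatives). siI3 replicate 3 lay far above the other siI3 libraries, and without it the log2 difference was 3.27. In a fit of only the 6 libraries compared the adjusted p was 0.0582.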

How the results depend on the processing

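Counts of members called are given with the share of all genes called, in either direction, in the same fit. In siI3 against siC 6 members were called (10.6%). The count was 2 with depth-only scaling (no scaling factor, 4.35%), 2 without the filter (1.02%) and 3 with the replicate block (5.41%). It was 12 from only the 6 libraries compared (9.77%), 1 after GC and length correction (6.8%) and 10 with spike-in scaling (49.7%). Leaving out 1 library gave 0 to 12 (0.646% to 20.5%). Without the members that depended on siC the counts, in this order, were 5, 1, 1, 2, 11, 1 and 9. They were 0 to 9 when 1 library was left out. In siI1 against siC the count was 0 (8.18%). It was 7 from only the 6 libraries compared (14.8%), of which 5 did not depend on siC. Without replicate 2 of every group it was 11 (20.2%), with 2 higher and 9 lower, and 9 of the 11 did not depend on siC. It was 0 to 3 when 1 library was left out (1.94% to 18.9%). In siI2 against siC it was 0 (1.51%), and 1 with DESeq2 (5.3%) and 7 with spike-in scaling (31.5%). Without replicate 2 of every group it was 9 (18.7%), of which 8 did not depend on siC. It was 0 to 8 when 1 library was left out (0.203% to 11.4%). In siI1 against siI3 it was 1 (7.05%), and 2 with DESeq2 (10.1%). It was 0 with edgeR, RLE, upper-quartile, spike-in or depth-only scaling, and with structured RNAs left out of the total. It was also 0 without the filter, with the replicate block or without replicate 2 of every group. In these fits 1.32% to 7.67% of all genes were called. It was 0 to 2 when 1 library was left out (3.96% to 8.87%). In siI2 against siI3 it was 0 (2.00%), and 2 with DESeq2 (4.04%), 1 with depth-only scaling (1.62%) and 1 with structured RNAs left out (2.21%). It was 0 to 6 when 1 library was left out (0.813% to 2.97%). In siI1 against siI2 it was 0 (2.40%), and 0 to 1 when 1 library was left out (0.921% to 1.76%). The cause of these differences was not tested. Over all genes, 1460 were called in siI3 (21.7% higher), against 2318 (37.9% higher) with DESeq2, 599 (43.4%) with depth-only scaling, 461 without the filter, 745 with the block, 909 after GC and length correction and 6850 (98.5%) with spike-in scaling. RLE scaling gave 34.5% higher, upper-quartile scaling 44% and leaving out structured RNAs 56.8%. Same-numbered libraries did not pair, with correlations of -0.455 to 0.447 over 18 pairs, of which 7 were over 0.1, and under the block SCARNA5, SNORD12B and SNORD15B were called in siI3. No member called in siI3 against siC, nor SNORD17 in siI1 against siI3, changed the sign of its log2 fold change. The host and partner genes were not followed over these alternatives. At 3299360 reads, 3 reads were 0.727 FPM, so levels of members near 1 FPM rest on few reads.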

Other observations

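The table also held 14 snoRNA or scaRNA rows with a mean of at least 1 FPM whose names carry a suffix and so fell outside the selection. SCARNA21.3 was at 27.2 to 66.7 FPM in siC and 39.5 to 68.2 FPM in siI3. SNORA64.3 was at 4.06, 7.44 and 7.85 FPM in siC, at 15.6 FPM in siI2 replicate 2 and 0.242 FPM in siI2 replicate 3, and at 0.14, 0.508 and 0.886 FPM in siI3, where the groups did not overlap. SNORA74.1 was at 16.8, 10.8 and 12.6 FPM in siC and 3.65, 1.78 and 6.20 FPM in siI3, again without overlap. SNORA42.1, SNORA42.4, SNORD46.1, SNORD116.20, SNORD3B.1 and SNORD3B.2 also lay below all siC libraries in siI3, and the remaining rows overlapped. Of all genes tested, 20.0% lay below siC in this way. The rows SNORD3B.1 and SNORD3B.2 stood at means of 1369 and 1376 FPM and followed SNORD3D in siC, at 5071, 1017 and 1141 FPM for SNORD3B.1. These rows were singled out after their values were seen and were not tested.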
